A study of Mus musculus with 11 samples.

Results

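The comparison described here set the kidneys of Robo2 homozygous mouse embryos against wild-type kidneys at embryonic day 17, on the 6 arrays whose titles begin with E17R2 out of the 11 in the series. Titles beginning E17R2WT marked the 3 wild-type arrays (E17R2WT1, E17R2WT3 and E17R2WT7), and titles beginning E17R2MU marked the 3 homozygous arrays (E17R2MU2, E17R2MU8 and E17R2MU9). Whole-kidney RNA was labelled and hybridised to an Affymetrix expression array, and all 6 arrays were summarised with robust multi-array averaging (RMA). The nature of the Robo2 allele, the strain, and whether an array held 1 kidney or several are not stated in any label, so p-values measure the spread between these arrays. Free-text fields of the labels speak of human brain, whereas the organism, source and tissue fields give mouse kidney. The latter were followed, and a list of neuronal markers bore on this: only 2 of its 15 measured genes reached a mean log2 intensity of 6, and their summed intensity was 373 to 459 on 5 arrays and 1637 on E17R2MU9. One highest-mean probe set was kept for each of 18193 genes. Values below are log2 intensities, listed in the order E17R2WT1, E17R2WT3, E17R2WT7 for wild-type and E17R2MU2, E17R2MU8, E17R2MU9 for homozygous, and differences are homozygous minus wild-type with the standard error of the limma fit (n = 3 and 3).

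ROBO2 is a cell-surface receptor for the secreted SLIT proteins, known from axon guidance. In the developing kidney, SLIT2 and ROBO2 confine GDNF-producing mesenchyme to the site where the ureteric bud forms, and mice without either protein are known to form extra buds and malformed urinary tracts. Nephrons then arise from mesenchyme through a renal vesicle, a comma- and an S-shaped body, and mature into podocytes, proximal tubule, loop of Henle and distal tubule. ROBO2 is also found in podocytes, the filtering cells of the glomerulus.

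Robo2 itself was lower on every homozygous array. Wild-type intensities were 3.13, 3.68 and 3.16, and homozygous intensities 2.03, 2.37 and 2.33. The groups did not overlap, and the difference was -1.08 ± 0.18 (95% confidence interval of the fit -1.50 to -0.66). The gene is read by 1 probe set, whose place relative to the altered part of the gene is not stated in any label, and its mean lay at only the 10.7th percentile of all genes. At so low a signal the background share of each value is unknown, so the difference gives a direction on these arrays and not a ratio of transcript levels. It had the second smallest p among genes that were lower (0.000581 unadjusted), and its adjusted p was 0.843.

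At a threshold of 0.05 on limma's p after Benjamini-Hochberg adjustment no gene passed, either over the 6 arrays (smallest adjusted p 0.843; 0% of genes) or without E17R2MU9 (smallest 0.819; 0%). At an unadjusted limma p under 0.05, 559 genes were lower (3.07%) and 458 higher (2.52%), and without E17R2MU9 the counts were 525 (2.89%) and 521 (2.86%). Leaving out E17R2WT7 let 1 gene pass, Mrap (limma adjusted p 0.00185), the melanocortin receptor accessory protein of the adrenal cortex, which read 7.73 and 7.69 in E17R2WT1 and E17R2WT3 and 3.37 to 3.77 on the other 4 arrays. Leaving out E17R2MU9 as well let 12 pass, among them Mrap, Chga, Chgb and Scg2, and left 2 arrays per group. All gene differences below are therefore descriptions of these arrays, with adjusted p of at least 0.843 over all 6, and an exact permutation test on 3 against 3 cannot go below 0.10.

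The largest variation lay between single arrays and not between genotypes. The first principal component held 43.7% of the variance and set E17R2MU9 (score 49.5) apart from the other 5 arrays (-13.3 to -6.5). Its positive end was led by Actg2, Adamdec1, Tnnt2 and Cnn1, with Synm and Myh11 close behind, and Actg2, Cnn1, Synm and Myh11 belong to contractile smooth muscle. The second, with 26.7%, set E17R2WT7 (32.9) against E17R2WT1 (-16.7) and E17R2WT3 (-18.9). Skeletal muscle and liver genes such as Ttn, Myh3 and Apoa1 stood at its positive end. Adrenal and chromaffin genes such as Cyp11b1 and Chgb stood at the other, with Xist. The third, with 13.7%, separated the wild-type arrays (-12.7 to -8.2) from E17R2MU2 (17.8) and E17R2MU8 (15.8), but E17R2MU9 lay near the wild-type side at -1.2. Gonadal genes such as Cyp17a1, Mael and Ddx4 led its positive end and adrenal and chromaffin genes its negative end.

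**Figure D1:**
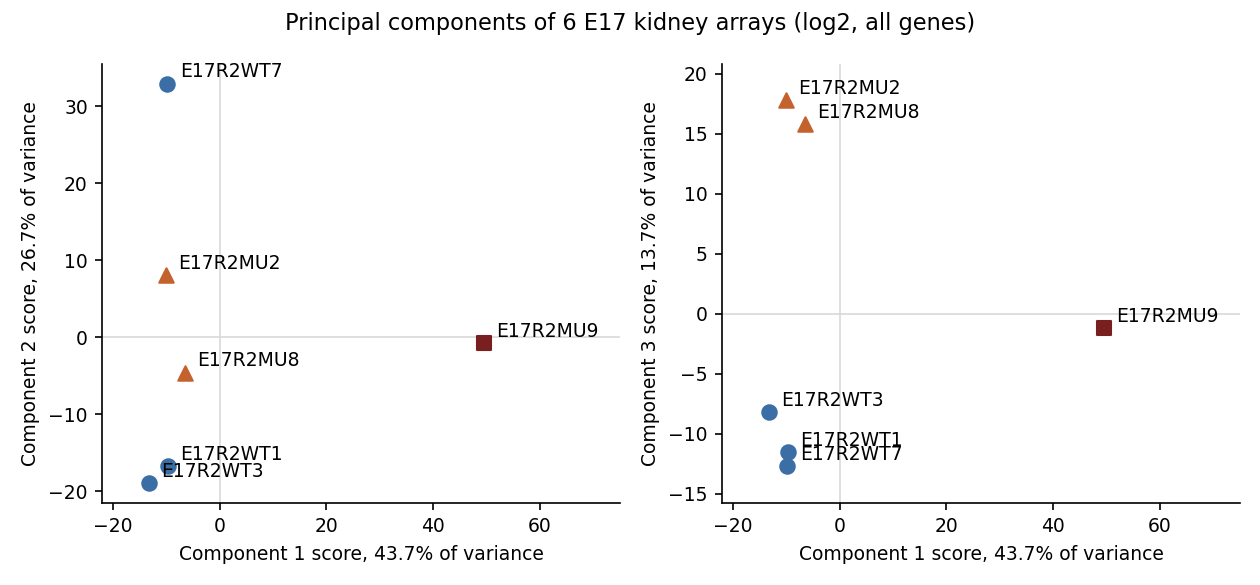
Scores of the 6 arrays on components 1 and 2 (left) and 1 and 3 (right), from log2 values of all genes. Circles are wild-type, triangles E17R2MU2 and E17R2MU8, and the square E17R2MU9, which stands alone at 49.5 on component 1, while component 3 parts the triangles from the circles.

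Pairwise distances also set E17R2MU9 and E17R2WT7 apart. The root mean square log2 difference per gene was 0.208 between E17R2WT1 and E17R2WT3, and 0.287 between E17R2MU2 and E17R2MU8. Between genotypes it was 0.286 to 0.368 for these 2 homozygous arrays against the 3 wild-type arrays. E17R2WT7 lay 0.388 and 0.400 from the other wild-type arrays, farther than any of those distances between genotypes. E17R2MU9 lay 0.461 to 0.514 from every other array. Over the 268 genes of the kidney lists alone, with markers of other tissues removed, E17R2MU2 and E17R2MU8 were 0.260 apart and 0.357 to 0.412 from the wild-type arrays, whose own distances were 0.194, 0.355 and 0.378. E17R2MU9 lay 0.765 to 0.898 from the rest on those genes.

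Markers of other tissues differed between arrays within each genotype. For a marker list, the level of an array is the median over its genes of the log2 value minus the gene's mean over the 6 arrays. Smooth muscle stood at 2.58 in E17R2MU9 and between -0.63 and -0.44 in the others, and 17 of its 18 measured genes were highest on that array. The summed intensity of the list was 6035 to 8644 in wild-type and 5592 to 49413 in homozygous arrays. Liver markers were highest in E17R2WT7 (level 2.20; 15 of 16 genes; sums of 2559 to 16497 in wild-type and 2147 to 7779 in homozygous). Skeletal muscle markers were also high there (2.06; sums of 895 to 10107 and 442 to 10436). Their sum was 10107 in E17R2WT7, 10436 in E17R2MU9 (level 0.49) and 3112 in E17R2MU2 (level 0.57). Adrenal cortex markers were high in E17R2WT1 and E17R2WT3 (1.28 and 0.86; sums of 1450 to 6605 in wild-type and 1158 to 3194 in homozygous), as were chromaffin and sympathetic neuron markers (1.04 and 0.50; sums of 1301 to 3782 and 1371 to 2245). Gonad markers were highest in E17R2MU2 (1.02; 13 of 19 genes; sums of 879 to 1000 and 756 to 1898). Xist was near 11.8 on 4 arrays and 4.72 on E17R2WT7 and on E17R2MU2, 1 array of each genotype. The 3' minus 5' signal of the array's control probe sets for Gapdh and Actb differed little between genotypes (exact permutation p of 1.0 and 0.9, two-sided; Gapdh 0.0713 ± 0.08 and 0.0618 ± 0.0266, Actb 0.460 ± 0.109 and 0.453 ± 0.094, mean ± SD, n = 3 each).

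**Figure D2:**
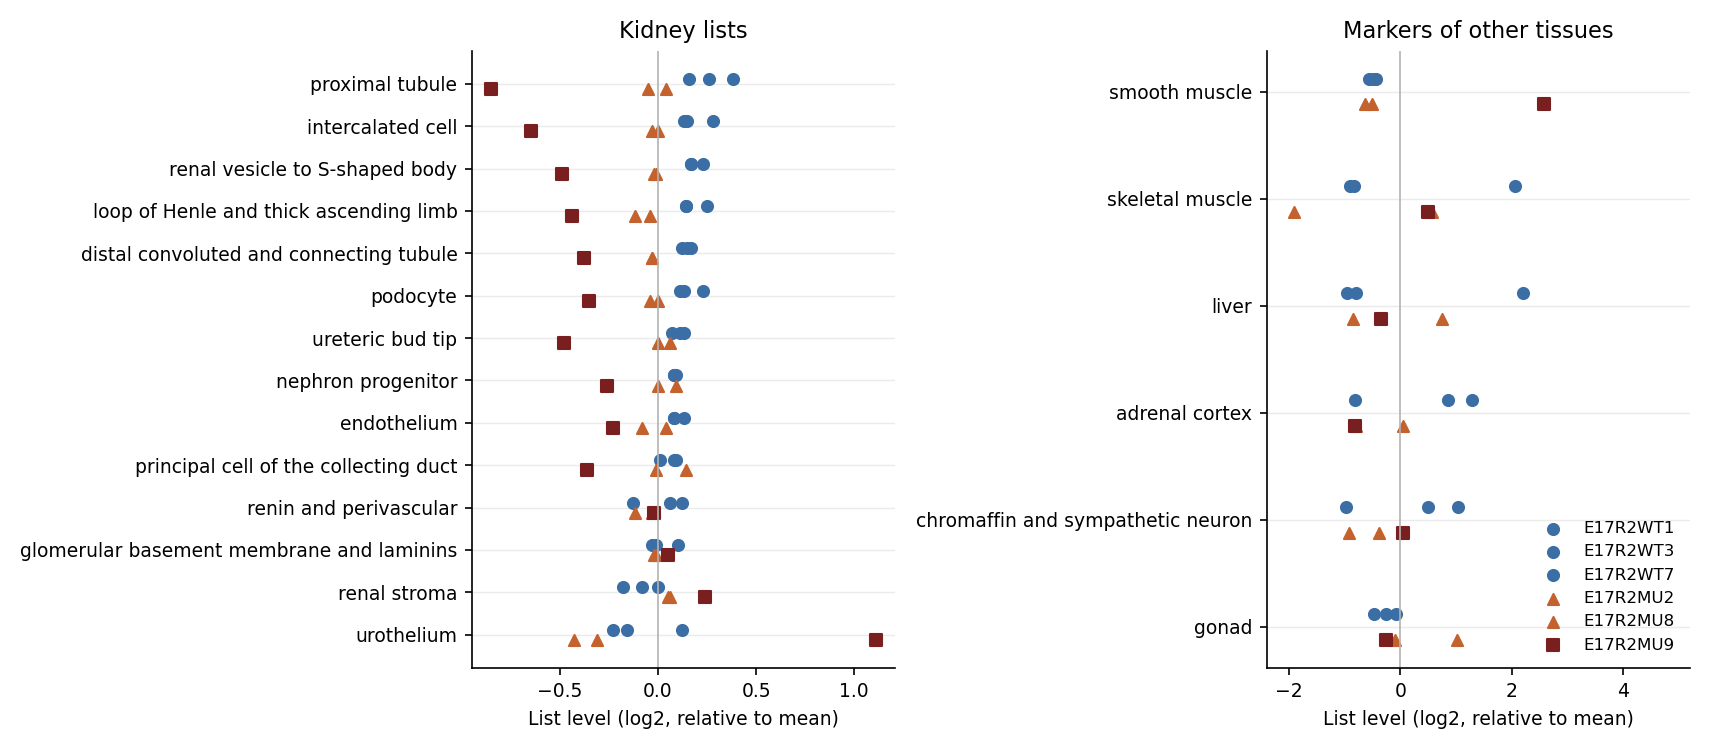
List level of each array (x axis, log2 relative to the mean of the 6 arrays) for 14 kidney lists and 6 lists of other tissues. The square, E17R2MU9, is at the far left for 10 of the 14 kidney lists and at 2.58 for smooth muscle.

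Effect sizes were small across the transcriptome. The median absolute log2 difference was 0.10, against a median standard error of 0.12 and a median 95% interval reaching 0.28 to either side. The 1st, 5th, 95th and 99th percentiles of the difference were -0.63, -0.31, 0.32 and 0.71. Without E17R2MU9 these percentiles were -0.55, -0.27, 0.26 and 0.49, so the upper tail shortened more than the lower one. Genes lower by at least 0.5 numbered 356 (1.96%) and genes higher by as much 383 (2.11%), and without E17R2MU9 the numbers were 231 (1.27%) and 173 (0.951%). Of the 739 genes past 0.5 in either direction, 260 were still past it without that array.

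**Figure D3:**
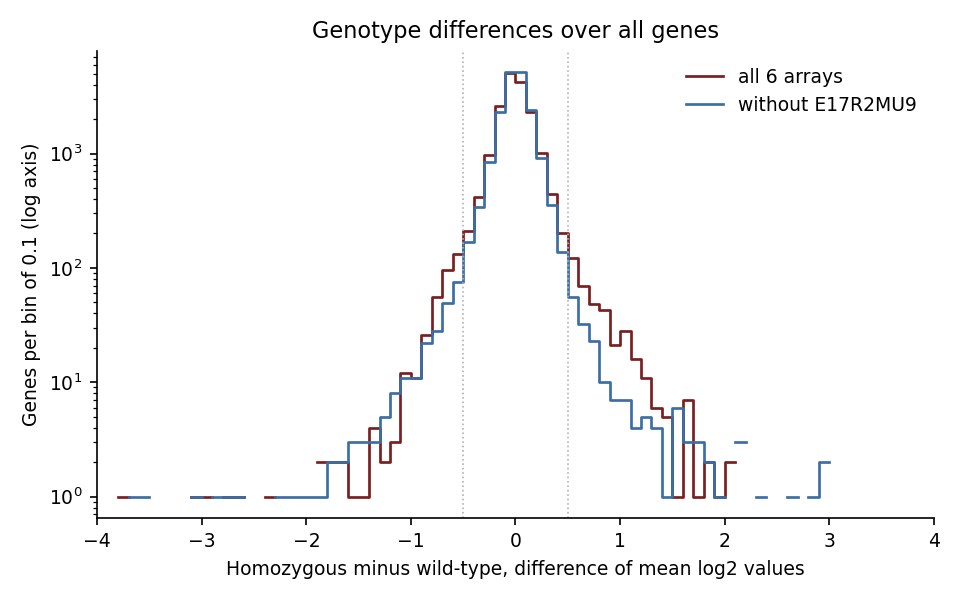
Number of genes (log axis) by the homozygous minus wild-type difference of mean log2 values, in bins of 0.1, for all 6 arrays and without E17R2MU9. Dotted lines mark differences of 0.5 in either direction. The right-hand shoulder beyond 0.5 falls from 383 to 173 genes when that array is left out.

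Most of the largest differences lay in genes whose groups overlapped. Of 115 genes past a difference of 1, only 30 had groups that did not overlap, 54 stayed past 1 without E17R2MU9 and 13 changed sign. Among the 80 that were higher (0.44% of all genes), E17R2MU9 held the highest value of the 6 arrays in 53. Genes lower by at least 1 numbered 35 (0.192%), and 48 (0.264%) without E17R2MU9. Cyp11b1, the enzyme of the last step of corticosterone synthesis in the adrenal cortex, had the lowest difference of all at -3.79 ± 1.47. Its values were 9.87 and 9.44 in E17R2WT1 and E17R2WT3, 4.09 in E17R2WT7, and 4.76, 3.63 and 3.65 in homozygous arrays, so the third wild-type array lay among the homozygous ones. Chgb, a granule protein of chromaffin cells, read 9.42, 9.20 and 3.81 against 4.19, 3.57 and 6.31. Cyp17a1, a steroid enzyme of the gonads, was 8.87 in E17R2MU2 and 2.42 to 2.94 on the other 5 arrays. Actg2, smooth muscle gamma actin, read 12.76 in E17R2MU9, 5.34 and 6.74 in the other homozygous arrays and 7.03 to 7.09 in wild-type, so its difference of 1.21 ± 1.76 became -1.03 without that array.

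Separation of the groups gene by gene was more frequent downwards. All 3 homozygous values lay below all 3 wild-type values in 1309 genes (7.2%) and above them in 917 (5.04%), so 58.8% of the separated genes were lower. After quantile normalization of the 6 arrays the counts were 1116 and 1172 (48.8% lower), so the larger number of lower genes was not kept under that scaling. Among the 9097 brighter genes 927 were lower (10.2%) and 341 higher (3.75%), a lower share of 73.1%, whereas among the 9096 dimmer genes 382 were lower (4.2%) and 576 higher (6.33%). Without E17R2MU9 separated genes numbered 1914 (10.5%) and 1800 (9.89%), which fewer arrays make easier to reach. Among separated genes, 215 were lower by at least 0.5 and 144 higher by as much. E17R2MU9 was the most extreme of the 6 arrays in 196 of the former and 108 of the latter, and without it 58 (27%) and 64 (44.4%) were still past 0.5.

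The genes with the smallest p kept most of their difference without E17R2MU9. Ranking by p favours this, since a small p needs little spread within each group. Inhba encodes the activin A subunit, a TGF beta family ligand. It read 4.93, 5.40 and 4.98 in wild-type and 6.57, 6.13 and 6.35 in homozygous arrays, and the difference of 1.25 ± 0.17 was 1.25 without E17R2MU9. A second probe set of the gene gave 0.54. Ly6h, a GPI-anchored LY6 family protein, read 5.94, 5.99 and 5.67 against 6.70, 7.09 and 6.80 (1.0 ± 0.14; 1.03 without E17R2MU9). Syt13, a member of the synaptotagmin family, read 5.04, 5.26 and 4.93 against 5.88, 5.84 and 6.12 (0.87 ± 0.12; 0.78 without that array), while its other probe set gave 0.01. In all of these the groups were apart by more than the range within either. Plxdc1 (0.60 ± 0.11) and Pdgfra (0.41 ± 0.08), the receptor for platelet-derived growth factor in mesenchyme, were also among the 10 smallest p of the genes that were higher. Pdgfra read 9.65, 9.60 and 9.48 against 10.01 and 9.96 and a value between these in E17R2MU9, with the same difference of 0.41 without E17R2MU9. Other probe sets of Pdgfra gave 0.153 to 0.413, and the other probe set of Plxdc1 gave 0.233.

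Lower genes with small p included podocyte genes. Lmx1b, a transcription factor of podocytes and the gene of nail-patella syndrome, read 5.88, 5.89 and 6.13 in wild-type and 5.23, 5.34 and 5.09 in homozygous arrays (-0.74 ± 0.11; -0.68 without E17R2MU9). Ptpro, a receptor tyrosine phosphatase of the podocyte surface, read 8.39, 8.41 and 8.30 against 7.62, 7.79 and 7.26 (-0.81 ± 0.14; -0.66 without that array). E17R2MU2 and E17R2MU8 were thus already well below the wild-type range for both. The dimmer probe set of each gave -0.07 for Lmx1b and 0.10 for Ptpro. Got1, a cytosolic aspartate aminotransferase, was lower by -0.56 ± 0.10 (-0.50 without E17R2MU9). Pla1a, a phospholipase, was lower by -0.85 ± 0.16 (-0.71), and Neat1, a nuclear long noncoding RNA, by -0.72 ± 0.14 (-0.64). A second probe set of Neat1 gave 0.09.

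**Figure D4:**
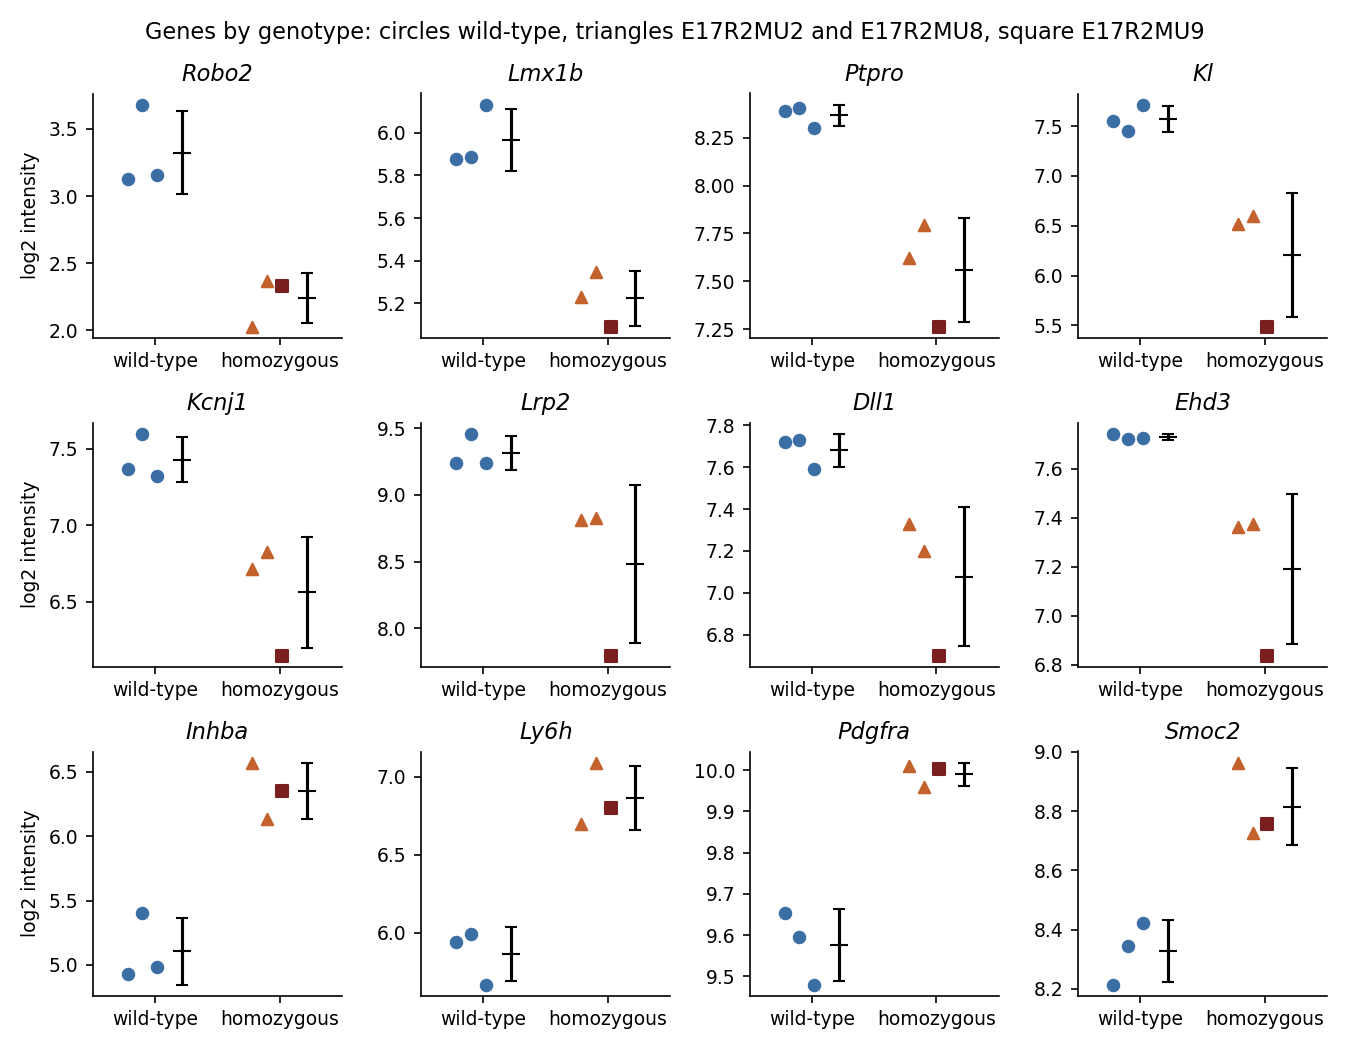
Log2 intensity of 12 genes on each array, with the mean and SD of each group in black (n = 3). Circles are wild-type, triangles E17R2MU2 and E17R2MU8, squares E17R2MU9; in all 12 genes the groups do not overlap, and E17R2MU9 is the lowest array for Lmx1b, Ptpro, Kl, Kcnj1, Lrp2, Dll1 and Ehd3. Each panel has its own y axis, which does not start at 0.

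Among genes with a mean of at least 6 and groups that did not overlap, the largest difference downwards was that of Kl. The gene encodes klotho, the FGF23 co-receptor of the distal tubule, and read 7.55, 7.46 and 7.72 in wild-type and 6.52, 6.60 and 5.49 in homozygous arrays. Its difference was -1.37 ± 0.29 over 6 arrays and -1.01 without E17R2MU9, while a second probe set gave -0.23. Slc22a22, a renal organic anion transporter, differed by -1.09 ± 0.37 (-0.66 without E17R2MU9), Defb1, a defensin of tubular epithelium, by -1.03 ± 0.36 (-0.63), and Efhd1, a mitochondrial calcium-binding protein, by -0.97 ± 0.30 (-0.72). Glyat, the glycine conjugation enzyme of mitochondria, differed by -0.93 ± 0.21 (-0.73). Its other probe sets gave -0.771 to -0.007. Cyp21a1, an adrenal steroid enzyme, also met the rule at -1.18 ± 0.39, and its values of 7.49 and 7.06 in E17R2WT1 and E17R2WT3 went with the adrenal marker levels given above. Their part in the result was not tested.

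Upwards, the same rule named Aldh1a1, Slc24a3, Emilin3 and Gdf10 first, and both collagen VI chains further down. Col6a2, a chain of the microfibrillar collagen VI, read 10.75, 10.90 and 10.83 against 11.49, 11.47 and 12.16 (0.88 ± 0.19; 0.65 without E17R2MU9). Col6a1, its partner chain, differed by 0.83 ± 0.28 (0.49). Gdf10, a BMP-related ligand, differed by 1.03 ± 0.31 (0.72), Twist2, a mesenchymal transcription factor, by 0.84 ± 0.24 (0.59), and Fgf13, an intracellular FGF homologue, by 0.75 ± 0.18 (0.55). E17R2MU9 was the highest array for all of these. A second probe set of Fgf13 gave 0.13. Emilin3, an elastic fibre glycoprotein, read 6.78, 6.93 and 7.10 against 7.19, 8.06 and 9.27, so its difference of 1.24 ± 0.48 was 0.69 without that array. Slc24a3, a sodium-calcium exchanger, differed by 1.29 ± 0.59 over 6 arrays and by 0.54 without it. Aldh1a1, a retinaldehyde dehydrogenase, was highest in E17R2MU2 (9.42, against 6.79 and 6.91 in the other homozygous arrays and 6.17 to 6.58 in wild-type), the array with the high gonad markers. The part of gonadal RNA in that value was not tested.

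To see which gene programmes did not rest on E17R2MU9, lists of genes were read with and without it. A list was said to hold where its median difference kept its sign and at least 50% of its size without that array, and where the levels of E17R2MU2 and E17R2MU8 both lay on one side of all 3 wild-type levels. Of 41 lists compared, 7 held, 6 of them lower and 1 higher, and 5 of these 7 were among the 14 kidney lists. List medians changed sign in 9. Among single genes, the condition on E17R2MU2 and E17R2MU8 was met downwards by 10.5% and upwards by 9.89% of all genes. The gap from these arrays to the nearest wild-type level was 0.18 for the renal vesicle list. It was only 0.05 for endothelium and for stroma, and 0.03 for congenital anomaly genes. The lists share members and are not independent. Irx1, Irx2 and Pou3f3 counted in both the renal vesicle and the loop of Henle lists. Irx1 and Pou3f3 counted again among tubule segment transcription factors. Dll1, Hey1 and Lfng counted in both the renal vesicle and the Notch lists. Over all 18193 genes the median difference was -0.01, and 0.00 without E17R2MU9, so list medians below stand against a background near 0. Counts of separated members stand against 7.2% of all genes downwards and 5.04% upwards over 6 arrays, and against 10.5% and 9.89% without E17R2MU9. A separated gene stays separated when an array is left out, so these counts cannot fall. Among the brighter genes the shares over 6 arrays were 10.2% downwards and 3.75% upwards. Bright genes fill some lists, with a mean of at least 6 in 25 of 26 endothelial and 20 of 20 stroma genes. In bulk tissue, fewer cells of a type and less RNA per cell cannot be told apart.

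**Figure D5:**
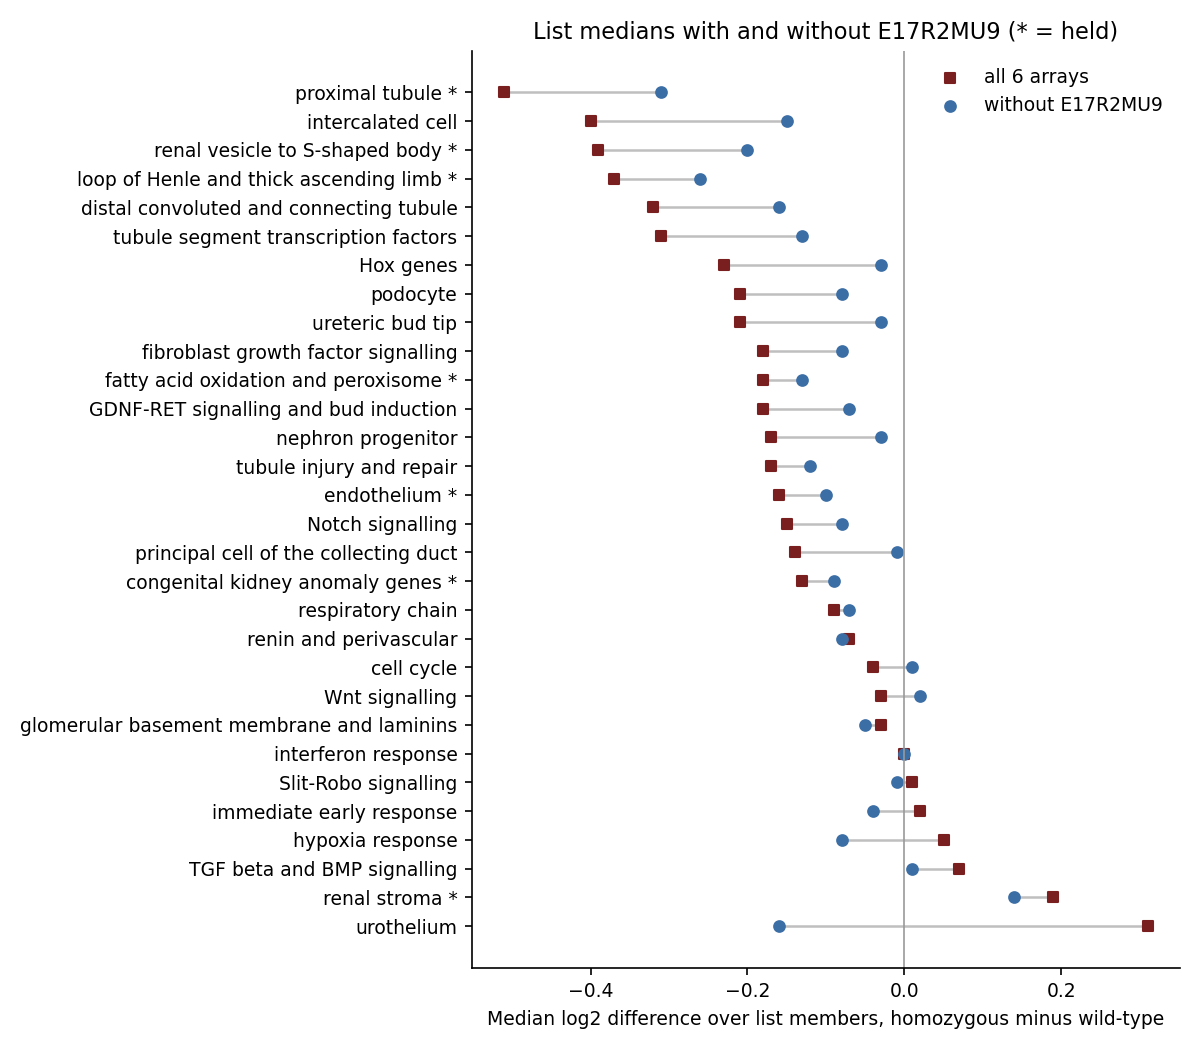
Median log2 difference over the members of 30 kidney, regulator and cell state lists, from all 6 arrays (squares) and without E17R2MU9 (circles); asterisks mark the 7 lists that held. Most lower medians lie nearer 0 without that array, the renin and basement membrane lists excepted; the proximal tubule moves from -0.51 to -0.31, and the urothelium changes from 0.31 to -0.16.

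The proximal tubule, the segment that takes back most filtered solutes and protein, had the lowest median of the lists that held. Of its 35 measured genes, 31 were lower, 21 had homozygous values all below wild-type (60%, against 7.2% of all genes) and none all above. The median difference was -0.51, and -0.31 without E17R2MU9 (61.6% of it). List levels were 0.16, 0.26 and 0.38 in wild-type and -0.05, 0.04 and -0.85 in homozygous arrays, so E17R2MU9 stood far below E17R2MU2 and E17R2MU8, which were themselves below every wild-type array. Lrp2 encodes megalin, the endocytic receptor for filtered proteins, and read 9.24, 9.46 and 9.24 against 8.81, 8.83 and 7.79 (-0.83 ± 0.28; -0.49 without E17R2MU9). Other probe sets of Lrp2 gave -0.932 to -0.018. Its partner Cubn, cubilin, read 8.74, 8.78 and 8.74 against 8.20, 8.36 and 7.35 (-0.79 ± 0.25; -0.48). Dab2, the adaptor of megalin, differed less, by -0.30 ± 0.09 (-0.27).

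Transporters of the segment followed the same order. Slc22a6, the basolateral organic anion transporter OAT1, read 7.75, 7.66 and 8.20 against 7.34, 7.38 and 6.22 (-0.89 ± 0.33; -0.51 without E17R2MU9). A second probe set of Slc22a6 gave -0.29. Slc34a1, the phosphate cotransporter, differed by -0.76 ± 0.33 (-0.36), Slc2a2, the glucose carrier GLUT2, by -0.72 ± 0.26 (-0.41), and Slc27a2, a fatty acid transport protein, by -0.71 ± 0.25 (-0.41). Pdzk1, a scaffold of brush border transporters, differed by -0.71 ± 0.29 (-0.36). Fbp1, a gluconeogenic enzyme, differed by -0.78 ± 0.30 (-0.42). Acsm2, a medium-chain acyl-CoA synthetase, differed by -1.01 ± 0.41 (-0.57), but E17R2MU2 and E17R2WT1 both read 8.71, so its groups barely separated. Its other probe sets gave differences of -1.105 to 0.184. Aqp1, the water channel, was an exception: it read 8.28, 8.59 and 8.70 against 7.92, 8.11 and 9.25, with E17R2MU9 the highest array. That gene is also expressed in endothelium.

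Hnf4a, the nuclear receptor that drives proximal tubule maturation, read 9.35, 9.43 and 9.73 against 9.09, 9.28 and 8.26 (-0.62 ± 0.27; -0.31 without E17R2MU9), without overlap. Promoters were therefore searched for the HNF4-type words CAAAGTCCA and CAAAGGTCA on both strands, in the 250 bases before each RefSeq gene start (GRCm38.p6), a choice made after these values were seen. Of 162 genes with a promoter entry among the separated genes lower by at least 0.5, 5 held one (3.09%), against 252 of 27025 genes in all (0.932%), and in the proximal tubule list 1 of 31 genes did (3.23%). A match describes letters only and is not a shown binding site. Slc3a1 encodes the heavy chain of the cystine transporter, Agxt2 a mitochondrial aminotransferase of the kidney, and Aadat the aminotransferase that makes kynurenic acid. Pafah2 (-0.653) and Pbld1 (-0.594), also among the 5, are not shown. Of the genes shown, only Slc3a1 belongs to the proximal tubule list. The upstream stretches of Slc3a1, Agxt2 and Aadat carry the word in genes that were lower, and are shown with the match in capitals. They lie on the plus strand of GRCm38.p6 at chr17:85028097-85028346, chr15:10358283-10358532 and chr8:60505874-60506123, and each ends at the base before the annotated start.
Slc3a1: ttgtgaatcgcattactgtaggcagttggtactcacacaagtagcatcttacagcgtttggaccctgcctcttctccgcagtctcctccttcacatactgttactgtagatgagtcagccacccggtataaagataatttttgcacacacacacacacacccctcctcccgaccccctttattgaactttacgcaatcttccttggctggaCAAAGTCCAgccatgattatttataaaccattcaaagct
Agxt2: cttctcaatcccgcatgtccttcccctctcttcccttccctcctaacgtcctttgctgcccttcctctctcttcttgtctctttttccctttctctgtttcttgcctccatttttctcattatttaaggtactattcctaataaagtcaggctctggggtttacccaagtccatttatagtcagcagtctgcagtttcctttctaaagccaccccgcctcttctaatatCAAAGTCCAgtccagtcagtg
Aadat: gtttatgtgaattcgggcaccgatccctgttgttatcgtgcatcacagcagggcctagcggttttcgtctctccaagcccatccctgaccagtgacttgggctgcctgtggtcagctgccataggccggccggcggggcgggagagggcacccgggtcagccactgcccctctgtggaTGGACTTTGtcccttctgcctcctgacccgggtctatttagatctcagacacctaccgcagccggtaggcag

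Of these, Slc3a1 read 7.86, 8.04 and 8.04 in wild-type and 7.26, 7.70 and 6.62 in homozygous arrays (-0.79 ± 0.26; -0.50 without E17R2MU9). Agxt2 read 4.81, 4.83 and 5.08 against 4.37, 4.37 and 3.83 (-0.72 ± 0.17; -0.54), and Aadat differed by -0.66 ± 0.30 (-0.30). In Aadat the word lies on the strand opposite to the gene, 64 to 72 bases before its start. In Slc3a1 it lies 31 to 39 bases before the start, and in Agxt2 13 to 21 bases before the start shown.

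The loop of Henle and thick ascending limb, which build the salt gradient of the medulla, kept 70.9% of their median (-0.37, and -0.26 without E17R2MU9). Of 17 measured genes, 10 were separated downwards (58.8%, against 7.2% of all genes) and none upwards, and all 17 were lower once E17R2MU9 was left out. List levels were 0.14, 0.25 and 0.14 against -0.12, -0.04 and -0.44. Kcnj1, the apical potassium channel ROMK, read 7.37, 7.60 and 7.32 against 6.72, 6.82 and 6.15 (-0.86 ± 0.19; -0.66 without E17R2MU9), although a dimmer probe set gave 0.05. Umod, uromodulin, read 8.01, 8.44 and 8.43 against 7.50, 8.0 and 6.74 (-0.88 ± 0.31; -0.54), with E17R2MU8 only just under E17R2WT1. Cldn16, the paracellular magnesium claudin, differed by -0.66 ± 0.21 (-0.43), and Sostdc1, a secreted BMP and Wnt antagonist, by -0.59 ± 0.20 (-0.38). Slc12a1, the sodium-potassium-chloride cotransporter NKCC2, read 10.05, 10.10 and 9.73 against 9.66, 9.74 and 8.92, so E17R2MU8 and E17R2WT7 overlapped.

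Genes of the renal vesicle to S-shaped body, the first epithelial forms of the nephron, were lower in all 23 members over 6 arrays. Of these, 15 were separated downwards (65.2%, against 7.2% of all genes). They stay separated without E17R2MU9 by construction, and no further member joined them, beside 10.5% of all genes separated then. The median of -0.39 went to -0.20, which is 50.9% and close to the limit set. List levels were 0.17, 0.23 and 0.17 in wild-type and -0.01, -0.02 and -0.49 in homozygous arrays. Dll1, a Notch ligand of the vesicle, read 7.72, 7.73 and 7.59 against 7.33, 7.20 and 6.70 (-0.60 ± 0.17; -0.42 without E17R2MU9). Lhx1, a transcription factor needed for nephron patterning, read 9.08, 9.04 and 8.96 against 8.76, 8.72 and 7.87 (-0.57 ± 0.24; -0.28). Irx1 and Irx2, transcription factors of the intermediate segment of the S-shaped body, differed by -0.52 ± 0.19 (-0.31) and -0.46 ± 0.13 (-0.36). Bmper, a BMP-binding protein, differed by -0.48 ± 0.12 (-0.37), Cdh6, a cadherin of the vesicle and early proximal tubule, by -0.44 ± 0.13 (-0.31), and Pou3f3, a transcription factor of the loop and distal nephron, by -0.48 ± 0.18 (-0.26). Pax8, a nephron lineage factor, read 8.61, 8.60 and 8.61 against 8.39, 8.44 and 7.53 (-0.48 ± 0.24; -0.19). Both E17R2MU2 and E17R2MU8 lay below the narrow wild-type range of that gene, by far less than E17R2MU9 did.

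Endothelial genes had a small median (-0.16, and -0.10 without E17R2MU9, 62.3% kept), with 9 of 26 separated downwards (34.6%, against 7.2% of all genes) and none upwards. List levels were 0.08, 0.13 and 0.08 against -0.08, 0.04 and -0.23. Ehd3, an endocytic protein of glomerular endothelium, read 7.74, 7.72 and 7.72 against 7.36, 7.37 and 6.84 (-0.54 ± 0.15; -0.36 without E17R2MU9). Cldn5, a claudin of vascular tight junctions, differed by -0.57 ± 0.21 (-0.32) and Tie1, an orphan receptor of the angiopoietin system, by -0.46 ± 0.16 (-0.27). Plvap, the diaphragm protein of fenestrae, differed by -0.41 ± 0.14 (-0.27), and Tek, the angiopoietin receptor, by -0.37 ± 0.14 (-0.23). The general endothelial markers Pecam1, Cdh5 and Kdr overlapped between groups, with differences of -0.14 ± 0.10, -0.13 ± 0.09 and -0.12 ± 0.10.

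Fatty acid oxidation and peroxisome genes kept 73.6% of their median (-0.18, and -0.13 without E17R2MU9), with 10 of 20 separated downwards (50%, against 7.2% of all genes) and none upwards. Levels were 0.04, 0.12 and 0.13 against -0.06, -0.02 and -0.19. Cpt1a, the rate-limiting carnitine transferase, read 8.60, 8.72 and 8.63 against 8.41, 8.33 and 8.21 (-0.33 ± 0.09; -0.28 without E17R2MU9). Acadm, the medium-chain dehydrogenase, differed by -0.31 ± 0.13 (-0.17), Acadvl, the very-long-chain one, by -0.24 ± 0.10 (-0.20), and Cpt2 by -0.21 ± 0.08 (-0.17). Acaa1b, a peroxisomal thiolase, differed by -0.76 ± 0.28 (-0.41), and Fabp3, a fatty acid binding protein, by -0.87 ± 0.27 (-0.56), although the other probe set of Fabp3 gave 0.20. Respiratory chain genes had a median of -0.09 (-0.07 without E17R2MU9) and their levels overlapped between groups.

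Renal stroma was the list that held in the upward direction. Its median was 0.19, and 0.14 without E17R2MU9 (72.6% kept), with 8 of 20 genes separated upwards (40%, against 5.04% of all genes) and none downwards. Leaving out E17R2WT7 instead gave a median of 0.11, a larger move than without E17R2MU9. List levels were -0.08, 0.00 and -0.18 in wild-type and 0.06, 0.05 and 0.24 in homozygous arrays. Besides Pdgfra, Smoc2, a matricellular protein, read 8.21, 8.34 and 8.42 against 8.96, 8.72 and 8.76 (0.49 ± 0.10; 0.52 without E17R2MU9), so this pair of genes did not rest on that array. Dcn, the proteoglycan decorin, read 11.03, 11.27 and 11.17 against 11.49, 11.61 and 12.09 (0.57 ± 0.17; 0.39). Lum, lumican, read 9.83, 10.09 and 9.73 against 10.34, 10.55 and 11.47 (0.91 ± 0.29; 0.57). Col1a1 differed by 0.51 ± 0.20 (0.29), Col1a2 by 0.27 ± 0.11 (0.16) and Col3a1 by 0.27 ± 0.14 (0.13), all fibrillar collagen chains. Tcf21, a factor of stroma and podocytes, differed by 0.15 ± 0.08, but its other probe set gave -0.56. Foxd1, the factor that defines cortical stroma progenitors, read 8.44, 8.38 and 7.89 against 8.41, 8.17 and 7.77 and overlapped between groups. Smooth muscle level in E17R2MU2 and E17R2MU8 (-0.51 and -0.63) lay within or below the wild-type range (-0.56 to -0.44), beside stroma levels above that of wild-type. The part of other tissues in the stroma levels was not tested.

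Genes known from congenital kidney anomalies also held, with a median of -0.13 (-0.09 without E17R2MU9, 67.9% kept). Without E17R2WT7 it was -0.22 and without E17R2MU2 -0.21. Of 28, 6 were separated downwards (21.4%, against 7.2% of all genes) and 2 upwards (7.14%, near the 5.04% of all genes), and this list includes Robo2. Agtr1a, the angiotensin II receptor, read 8.38, 8.36 and 8.04 against 7.71, 8.01 and 7.53 (-0.51 ± 0.16; -0.40 without E17R2MU9), and Ace, the enzyme that makes its ligand, differed by -0.34 ± 0.14 (-0.21). Foxc1 and Foxc2, forkhead factors of the early kidney mesenchyme and podocytes, each differed by -0.39 ± 0.17 (-0.20 and -0.21). Gli3, a Hedgehog pathway factor, was higher by 0.24 ± 0.13 (0.11). Srgap1, a GTPase activator downstream of ROBO receptors, read 7.21, 7.33 and 7.23 against 7.04, 7.01 and 6.79 (-0.31 ± 0.10; -0.23).

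In the Slit-Robo list of 20 genes, Robo2 and Srgap1 were separated downwards (10%) and Slit2 and Arhgap39 upwards (10%), with a median of 0.01. These shares are near the 7.2% and 5.04% of all genes, so the list as a whole did not stand apart, and its members are given for their roles. Slit2, the ligand of ROBO2, read 9.50, 9.56 and 9.47 against 9.58, 9.72 and 9.63 (0.14 ± 0.08; 0.14 without E17R2MU9), but the mean over its probe sets gave -0.00. Arhgap39, a GTPase activator, differed by 0.21 ± 0.09 (0.23). Robo1, the related receptor, read 8.0, 7.85 and 6.84 against 7.16, 6.67 and 6.42, so the low wild-type value of E17R2WT7 lay inside the homozygous range (-0.81 ± 0.34; -0.65).

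Podocyte genes did not meet the rule for the list as a whole, which includes Robo2 itself and Srgap1, both separated downwards. The median went from -0.21 to -0.08 without E17R2MU9 (36.1% kept). Over 6 arrays, 10 of 27 members were separated downwards (37%, against 7.2% of all genes). They stay separated without that array by construction, and no further member joined them, beside 10.5% of all genes separated then. The levels of E17R2MU2 and E17R2MU8 (-0.04 and 0.00) lay below the wild-type ones (0.11 to 0.23). Besides Lmx1b and Ptpro, Nphs1, nephrin of the slit diaphragm, read 6.28, 6.41 and 6.86 against 6.20, 5.83 and 5.11 (-0.81 ± 0.29; -0.50 without E17R2MU9). Podxl, podocalyxin, read 10.09, 10.10 and 10.16 against 9.64, 9.85 and 8.99 (-0.62 ± 0.21; -0.37). Clic5, a chloride channel-like protein of foot processes, differed by -0.78 ± 0.29 (-0.43). Wt1, the podocyte transcription factor, read 9.06, 9.08 and 8.92 against 8.91, 8.96 and 8.14 and overlapped (-0.35 ± 0.22; -0.09). Without that array 17 of the 27 members were lower and 10 higher, and Tcf21 was the member separated upwards (3.7%, against 5.04% of all genes). The other probe set of Tcf21 was lower, as given for the stroma list above.

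The distal tubule missed the limit by a small margin, with a median of -0.32 that became -0.16 (49.1% kept) and 7 of 17 genes separated downwards (41.2%, against 7.2% of all genes). Slc12a3, the thiazide-sensitive sodium chloride cotransporter, read 6.26, 6.45 and 6.42 against 5.34, 5.93 and 4.85 (-1.0 ± 0.26; -0.74 without E17R2MU9), while a dimmer probe set gave 0.13. S100g, the calcium carrier calbindin-D9k, read 10.20, 10.27 and 10.15 against 9.74, 9.81 and 8.83 (-0.74 ± 0.26; -0.43). Fxyd2, the gamma subunit of the sodium pump, differed by -0.54 ± 0.23 (-0.28), and Emx1, a homeobox factor of the distal nephron, by -0.34 ± 0.11 (-0.24). Tubule segment transcription factors had 10 of 20 members separated downwards (50%, against 7.2%) and a median of -0.31 that became -0.13 (42% kept). Tfap2b, a factor of the distal nephron, differed by -0.63 ± 0.17 (-0.50), Esrrg, an orphan nuclear receptor, by -0.56 ± 0.17 (-0.38), and Ppargc1a, a coactivator of mitochondrial genes, by -0.54 ± 0.20 (-0.34).

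Acid- and water-handling cells of the collecting duct depended more on E17R2MU9. Intercalated cell genes had a median of -0.40 that became -0.15 (38% kept), with 5 of 19 separated downwards (26.3%, against 7.2% of all genes). Rhcg, an ammonia transporter, read 7.05, 7.05 and 7.15 against 6.70, 6.70 and 6.15 (-0.57 ± 0.16; -0.39), and Atp6v0d2, a proton pump subunit, differed by -0.60 ± 0.20 (-0.39). Principal cell genes had a median of -0.14 that became -0.01 (4.75% kept), with 2 of 23 separated downwards (8.7%), a share near the 7.2% of all genes. These were Aqp2 and Aqp3, given for their roles. Aqp2, the vasopressin-regulated water channel, read 7.32, 7.62 and 7.75 against 7.04, 7.25 and 6.49 (-0.63 ± 0.21; -0.42), and Aqp3, its basolateral counterpart, differed by -0.27 ± 0.09 (-0.25).

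Medians of the progenitor, bud tip and Hox lists were near 0 once E17R2MU9 was left out. Nephron progenitor genes went from -0.17 to -0.03, ureteric bud tip genes from -0.21 to -0.03 and Hox genes from -0.23 to -0.03. Six2, the progenitor transcription factor, read 9.39, 9.37 and 9.48 against 9.61, 9.05 and 9.0, and Cited1, another progenitor marker, differed by -0.24 ± 0.22 over 6 arrays and by 0.02 over 5. GDNF-RET genes went from -0.18 to -0.07 (40% kept), with 4 of 20 separated downwards over 6 arrays (20%) and 5 without E17R2MU9. Their levels in E17R2MU2 and E17R2MU8 (0.02 and -0.02) lay below the wild-type ones (0.10 to 0.11). Gdnf itself, the ligand that attracts the bud, read 7.82, 7.88 and 8.01 against 8.09, 7.86 and 7.28, a difference of -0.16 ± 0.20 that was 0.07 without that array, and Gfra1, its co-receptor, differed by -0.22 ± 0.13 (-0.13). Notch genes went from -0.15 to -0.08 (49.7% kept) and so missed the limit by less than the distal tubule did. Of 21, 6 were separated downwards over 6 arrays (28.6%) and 7 without E17R2MU9. Their levels in E17R2MU2 and E17R2MU8 (-0.05 and 0.00) lay below the wild-type ones (0.03 to 0.13), and Notch1 differed by -0.35 ± 0.11 (-0.25). Urothelial genes turned from 0.31 to -0.16 and smooth muscle genes from 0.91 to -0.26. Myh11, smooth muscle myosin, read 12.24 in E17R2MU9, 6.46 and 7.27 in the other homozygous arrays and 7.74 to 7.94 in wild-type.

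In E17R2MU9, 10 of the 14 kidney list levels were the lowest of the 6 arrays, beside its smooth muscle level of 2.58 and urothelium level of 1.11. Relative to the wild-type mean, the 14 kidney levels had a median of -0.46 in that array, -0.11 in E17R2MU2 and -0.08 in E17R2MU8, and 12 of 14 were below the wild-type mean in each of the latter. The part of smooth muscle RNA in the lower kidney levels of E17R2MU9 was not tested. In E17R2MU2 and E17R2MU8 smooth muscle levels were within or below the wild-type range beside the lower proximal tubule, loop and vesicle levels. Other tissue markers also varied, with gonad at 1.02 and liver at 0.74 in E17R2MU2 and liver at 2.20 in E17R2WT7. The part of any other tissue in the kidney levels of these arrays was not tested.

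A separate pair of arrays of the same age and genotypes, R2E17 (1 wild-type and 1 homozygous array, normalised apart), allows only side-by-side values. Its differences had the direction of the 6 arrays for Robo2 (-0.59), Syt13 (0.82) and Ly6h (0.32). Among other genes described above, Fgf13 (0.71), Plxdc1 (0.23), Neat1 (-1.45), Umod (-1.01) and Defb1 (-0.33) also kept that direction. Further genes went the opposite way or were near 0 in the pair. Kl was at 0.59, Got1 at 0.58, Ptpro at 0.14, Lmx1b at 0.08, Inhba at -0.001, Pdgfra at -0.19 and Lum at -1.28. Slc22a22 at 1.26, Glyat at 0.95, Slc22a6 at 0.85 and Lrp2 at 0.68 also went the opposite way. These are examples, and not all described genes are given for the pair. Its medians were 0.56 for the proximal tubule, -0.04 for the loop of Henle, 0.01 for the renal vesicle list, -0.16 for endothelium and -0.22 for stroma. Proximal tubule and stroma thus lay on the opposite side of 0 from the 6 arrays, and endothelium on the same side. Skeletal muscle markers were higher in the homozygous R2E17 array with a median of 3.75. Of the 1309 genes separated downwards, 522 (39.9%) lay below the pair's median difference, against 44% of all genes that were lower, and 374 of the 917 separated upwards (40.8%) lay above it, against 43.2%. Among separated genes past 0.5 the shares were lower still, at 65 of 215 downwards (30.2%) and 55 of 144 upwards (38.2%). Identical values on both arrays of the pair made up 9.38% of genes. Their difference of 0 lay under the pair's median of 0.01, so they counted as below it.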

How the data were processed

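RNA of E17 mouse kidneys was measured on Affymetrix arrays. The authors deposited RMA values, per the submitters' processing notes. The deposited values are linear intensities, judged from their range, and not log2 values, so log2 was taken. The series table held 45101 probe sets, of which 64 were controls. A single gene symbol was given to 34945, several to 932 (not used) and none to 9160, and 34741 were matched to RefSeq symbols. For each of 18193 genes the probe set with the highest mean over the 6 arrays was kept, and 1606 of these probe sets may read related genes (suffix _x_ or _s_). The arrays' median intensities were 23.4 to 24.6.

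Groups were taken from titles and source labels. Genotypes were compared by the moderated test of limma (version 3.58.1, R version 4.3.3; functions lmFit and eBayes; two-sided; Benjamini-Hochberg threshold 0.05), with and without E17R2MU9, after the code was tested on simulated data. Standard errors come from that fit and limit precision by the number of arrays. Genes were named by rule: Robo2, the 15 largest differences per direction among separated genes with a mean of at least 6, the 10 smallest p per direction, the 10 largest differences per direction and separated members of the lists, or else those with the largest differences or means. Pecam1, Cdh5, Kdr, Agxt2 and Aadat were named after their values were seen. Gdnf, Gfra1, Six2, Cited1, Foxd1, Aqp1, Robo1 and Myh11 were also named outside the rule. Genes given for the principal components were read from the component ends. The comparison and the gene lists were chosen with earlier results of these data known. Alternatives left out arrays or changed the variance model, array weights, dim-gene filter, scaling, pseudocount (16), probe set choice and the arrays in the fit. The 3 homozygous R2NB arrays were not compared.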

Additional observations from a re-analysis of the deposited data

Results flagged for a closer look

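Proximal tubule genes had a median log2 difference of 0.56 in the R2E17 pair, where 29 of 35 were higher in the homozygous array, and of -0.51 on the 6 E17R2 arrays, where 31 of 35 were lower. Renal stroma genes had a median of -0.22 in the pair, with 16 of 20 lower, and of 0.19 on the 6 arrays. These were singled out because the same genotype contrast pointed opposite ways in 2 sets of arrays. The difference was not tested, since the pair has 1 array per genotype, and its homozygous array also carried skeletal muscle markers at a median of 3.75 above its wild-type partner.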

How the results depend on the processing

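No paired analysis was possible because the replicate numbers in the titles are not shared between the groups. Of 130 genes checked one by one, which include those described, 121 kept their direction in all 18 settings. Many were named because their groups did not overlap. Such a gene cannot change direction when arrays are left out or weighted, or a pseudocount is added. The variance model, the dim-gene filter and adding the other arrays of the series to the fit leave a gene's difference as it was. For separated genes, only the scaling and the probe set choice could therefore reverse the direction. The 7 held lists kept their direction in all 18 settings, with proximal tubule medians of -0.71 to -0.27. These lists were chosen for keeping their sign without E17R2MU9, so that setting is no test of them. Leaving out arrays gave these ranges: genes past the adjusted p, 0 to 12 (1 without E17R2WT7 and 12 without E17R2WT7 and E17R2MU9); unadjusted p under 0.05, 312 to 860 lower and 254 to 956 higher; separated genes, 1914 to 3583 lower and 1365 to 3924 higher, which fewer arrays raise by construction. Without E17R2WT1, 254 genes were higher at p under 0.05 and without E17R2WT7, 754. Without E17R2WT3, 312 were lower. Medians ranged from -0.51 to -0.19 for the renal vesicle list, from -0.50 to -0.21 for the loop of Henle, from 0.08 to 0.28 for stroma, from -0.22 to -0.09 for congenital anomaly genes and from -0.21 to -0.11 for fatty acid oxidation. The lowest stroma median came without E17R2MU9 and E17R2WT7, and leaving out E17R2WT7 alone gave 0.11. Gene differences that crossed 0 ranged from -1.05 to 2.68 for Actg2, -0.99 to 1.94 for Myh11, -0.33 to 0.12 for Gdnf, -0.42 to 0.06 for Cited1, -0.29 to 0.15 for Foxd1, -0.63 to 0.16 for Aqp1 and -0.26 to 3.01 for Cyp17a1, the last negative without E17R2MU2. Array weights gave 1068 higher genes at p under 0.05, and differences of 0.04 for Gdnf, -0.38 for Actg2 and -0.39 for Myh11; E17R2MU9 had the lowest weight (0.304). Keeping genes at or above the median level gave 153 higher at p under 0.05 and 341 separated upwards. The mean over probe sets gave -0.20 for Tcf21 and -0.00 for Slit2. The share of lower genes among those with p under 0.05 was 55%, and 73.3% with that filter, 43.8% with array weights and 64.9% with a pseudocount of 16. Among separated genes it was 58.8%, 73.1% with the filter and 48.8% after quantile normalization. Where no construction is named, the cause was not tested. Low signal limits the dim genes, Robo2 included, and 3 arrays per group limit all of them.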

Other observations

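Hypoxia response genes had a median difference of 0.05 over 6 arrays and -0.08 without E17R2MU9, whose level of 0.41 stood above the other 5 (-0.19 to 0.10). Cell cycle genes had no separated member among 28, with a median of -0.04. Interferon response genes had a median of 0.00, and macrophage genes one of 0.14 with levels that overlapped between groups. In the R2E17 pair the same lists had medians of 0.34 for hypoxia, 0.17 for cell cycle, 0.65 for interferon and -0.02 for macrophages.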
